A study of Mus musculus with 32 samples.

Results

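The lysosomal enzymes and membrane proteins described here are 46 genes named for what their products do, of 16593 genes with a symbol on the array. They comprise 9 proteases, 11 glycosidases, 5 sulfatases, 7 lipid enzymes and activators, 2 genes of cholesterol export, 6 membrane proteins, 3 sorting receptors and 3 genes of the proton pump. Probes were taken by the symbol annotated to them, and where a gene had several the brightest stood for it. A probe was present for 44 of the 46 and none for Npc1 and Atp6v0c. Detection in at least 5 mice was reached by 42 members, of 9972 genes tested in the whole series, while Gla and Fuca1 were detected in 0 mice. Detection reached all 27 mice for 40 of the members, 26 mice for Galns and 13 for Sgsh.

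The livers came from 30 mice, male and of strain C57BL/6J, killed at 56 weeks of age after 40 weeks on their diet, with 5 mice to each of 6 groups. These are the age in the sample characteristics and the weeks in the treatment protocol, and the sources differ from each other by 1 or 2 weeks. SD was a standard diet and HFD a diet with most of its calories from fat, both without drug. Disulfiram (DSF), a drug given to deter drinking of alcohol, was mixed into the food of the others at a nominal 100 mg/kg/day for the low dose (SDL, HFDL) or 200 mg/kg/day for the high dose (SDH, HFDH). The food held 1 g of DSF per kg for SDL, 2 g for SDH, 2.33 g for HFDL and 2.67 g for HFDH, so the doses lay closer together on HFD. No group carried an engineered allele, the mice were all male, and whole liver was measured, in which fewer cells of a type and less RNA per cell cannot be told apart. Mice with DSF are called by the number in the deposited column headers.

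Lysosomes are the acid compartments in which cells break down proteins, glycans, lipids and whole organelles delivered by endocytosis or autophagy. Most of their soluble enzymes are tagged with mannose 6-phosphate in the Golgi and carried onward by sorting receptors, while a proton pump in the membrane keeps the interior acid. Hepatocytes and the resident macrophages of the liver, the Kupffer cells, are both rich in them, and many of the genes share a short promoter element, called CLEAR, to which the transcription factors TFEB and TFE3 bind.

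Of the 32 arrays, 3 stood apart and were left out by the rule that at least 35% of probes be detected. They were those of SDH 16 (6.56% detected), HFDL 10 (23.7%) and HFDH 16 (27.2%), against 43.8% to 52.7% on the 29 arrays used, which left 27 mice and 4 or 5 per group. Over all 30 mice the same model called 0 members in every comparison, and 0 to 19 of 10041 genes. Each call below rests on leaving those 3 mice out. Marker sums are of Z-normalised levels put back on a linear scale, and not of the intensities as measured. Markers of pancreatic acinar cells (5 of 11 above background) summed to 38000 in SDH 17 and 5490 in SD 2, against 447 to 969 in the other 25 mice. Both mice were kept, and the values without them are given where a call was lost. Hepatocyte markers (7 of 8 above background, led by Trf) were high in every mouse, with sums of 76200 to 154000. The sums for Kupffer cell and macrophage markers (10 of 14 above background, led by Vsig4) ranged from 3170 to 12300.

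Over the 27 mice most of the lysosomal genes were not called with long-term DSF, and a few were called higher or lower. The 95% interval of a member's log2 difference from its diet control had a median half-width of 0.25 to 0.27. A member that was not called is therefore not shown to be unchanged. At an adjusted p under 0.05 over all 9972 genes, 7 members passed the test in at least 1 of 9 comparisons, with 12 calls in all. The share of all genes passing in at least 1 comparison was not computed. The calls are not independent, since SDL-SD and SDH-SD share the SD mice. In HFDH-HFD 5 of the 42 members were called, where 1.44% of all genes rose and 2.94% fell, in SDH-SD 5, where 2.81% rose and 4.26% fell, and in SDL-SD 2, where 0.271% rose and 0.361% fell. Gm2a, Ppt1 and Pla2g15, all 3 from the class of lipid enzymes and activators, changed with the high dose on both diets. Sort1 rose with both doses on SD, Mcoln1 fell with the high dose on SD, and Ctsh rose and Arsa fell with the high dose on HFD. No member was called for the diet itself, for the low dose on HFD, for the high against the low dose on either diet, or for the difference between the diets. Every value below is a level or a difference of levels on the log2 scale, where the level of a gene is its Z-normalised log2 intensity in units of the mean array, with the array's mean over all probes at 0. Levels of different genes are not compared, since probes differ in brightness.

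**Figure D1:**
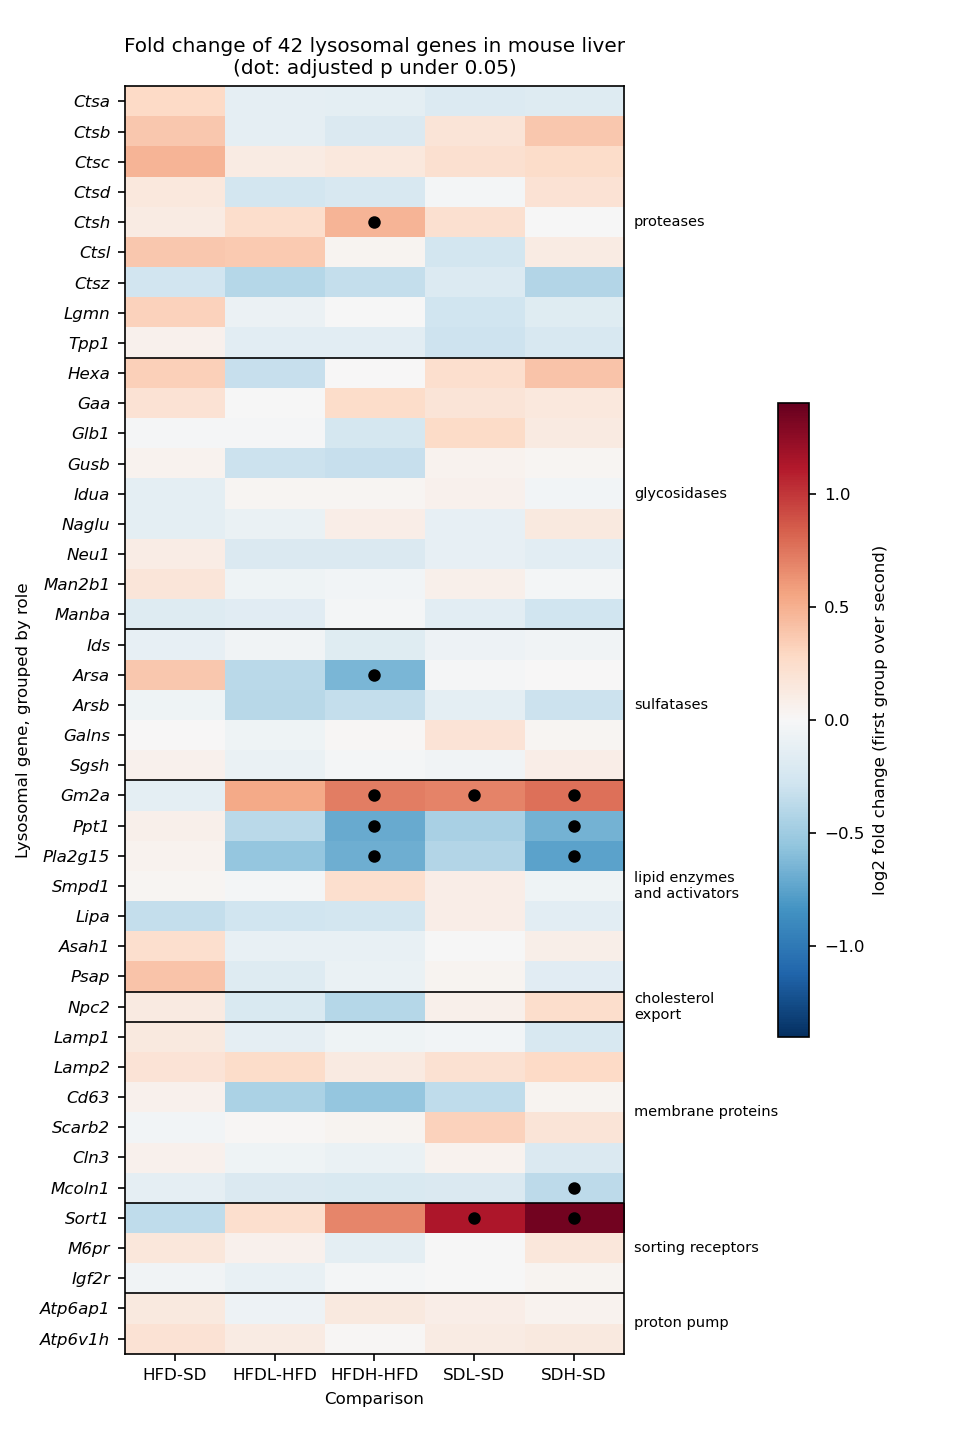
Log2 fold change of the 42 members tested (rows, grouped by role) in the 5 comparisons with the diet or the drug (columns), red where the first group was higher and blue where it was lower. Dots mark the 12 calls, of which 7 lie in the lipid enzymes and activators and come from Gm2a, Ppt1 and Pla2g15.

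Promoter windows, from 250 bases before to 50 after the annotated start, were taken from RefSeq (GRCm38.p6) for 38 of the 46 members. The table holds no entry for Ctsb, Ctsh, Galns, Asah1, Npc1, Sort1, M6pr and Atp6v1h. The 8-letter core of the CLEAR element, TCACGTGA, and the shorter E-box CACGTG that lies inside it were searched for. Each reads the same on both strands. The core was present in 6 of the 38 members (15.8%), against 1.12% of all 27025 genes with a window, and the E-box in 14 (36.8%), against 8.09%. Among the other lysosomal genes listed below, the core was in 7 of 42 (16.7%). The sites with 8 bases on each side are shown to place the element in these promoters, with the core in capitals and the first site where a window holds more than 1:
Cln3, chr7:126583343-126583366, - strand: gggtactgTCACGTGAcccccaac
Ctsa, chr2:164833752-164833775, + strand: gcaaactgTCACGTGAtgcagatg
Ctsd, chr7:142387911-142387934, - strand: cccgcgtcTCACGTGAcccgttga
Gla, chrX:134601218-134601241, - strand: gcgattgaTCACGTGAgcatctac
Igf2r, chr17:12769740-12769763, - strand: cgaggacgTCACGTGAgcaggagg
Mcoln1, chr8:3500465-3500488, + strand: cgccccgcTCACGTGAccgcggcg

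The whole windows of the 5 called members with an entry are shown because these are the genes that changed, with the E-box and the core in capitals:
Gm2a, chr11:55097735-55098034, + strand: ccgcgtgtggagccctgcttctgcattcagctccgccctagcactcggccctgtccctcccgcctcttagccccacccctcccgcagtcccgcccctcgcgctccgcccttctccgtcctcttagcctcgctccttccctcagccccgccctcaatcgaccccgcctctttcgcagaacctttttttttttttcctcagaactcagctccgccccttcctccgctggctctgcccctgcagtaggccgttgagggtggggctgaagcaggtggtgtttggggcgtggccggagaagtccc
Ppt1, chr4:122835977-122836276, + strand: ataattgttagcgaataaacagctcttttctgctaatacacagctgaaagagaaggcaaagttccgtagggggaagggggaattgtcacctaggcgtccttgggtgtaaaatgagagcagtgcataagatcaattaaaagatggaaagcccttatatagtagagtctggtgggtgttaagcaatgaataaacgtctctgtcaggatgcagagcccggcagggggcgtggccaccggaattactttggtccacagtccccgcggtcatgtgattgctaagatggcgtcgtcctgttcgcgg
Pla2g15, chr8:106150104-106150403, + strand: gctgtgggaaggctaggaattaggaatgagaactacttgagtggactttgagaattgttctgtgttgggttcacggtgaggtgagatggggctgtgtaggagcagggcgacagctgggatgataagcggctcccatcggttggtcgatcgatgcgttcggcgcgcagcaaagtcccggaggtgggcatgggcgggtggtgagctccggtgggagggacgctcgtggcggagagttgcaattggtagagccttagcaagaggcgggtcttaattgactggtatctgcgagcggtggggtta
Arsa, chr15:89477375-89477674, - strand: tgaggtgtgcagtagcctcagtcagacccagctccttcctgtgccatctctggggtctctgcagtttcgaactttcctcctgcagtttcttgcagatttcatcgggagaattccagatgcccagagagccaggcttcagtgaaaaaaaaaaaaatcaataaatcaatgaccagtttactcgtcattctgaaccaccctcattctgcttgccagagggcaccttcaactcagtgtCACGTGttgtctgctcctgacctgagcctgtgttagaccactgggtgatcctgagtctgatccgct
Mcoln1, chr8:3500269-3500568, + strand: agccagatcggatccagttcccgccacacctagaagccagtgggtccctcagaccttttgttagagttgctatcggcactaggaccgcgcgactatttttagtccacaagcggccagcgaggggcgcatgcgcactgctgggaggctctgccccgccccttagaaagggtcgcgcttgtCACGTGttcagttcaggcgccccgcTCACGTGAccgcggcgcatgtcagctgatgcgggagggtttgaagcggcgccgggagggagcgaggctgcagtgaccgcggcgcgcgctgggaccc

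These letters were absent from the windows of Gm2a, Ppt1 and Pla2g15, the 3 members called on both diets. Arsa held the E-box without the core, 16 bases before the start. Mcoln1 held the core 46 bases before the start and a further E-box beginning at base 71 before it. The other members with the core that were tested, Cln3, Ctsa, Ctsd and Igf2r, had log2 fold changes of -0.22 to -0.02 in HFDH-HFD and of -0.20 to 0.20 in SDH-SD, and none was called. A match is a description of the sequence and shows nothing about binding in these livers.

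The proteases were led in signal by Ctsb, cathepsin B, and the dimmest was Ctsd, cathepsin D, the aspartic protease of the lysosome. HFD-SD asks what the fatty diet did without drug. In it 8 of the 9 proteases lay above 0, with a median of 0.28, but 0 of the 42 members rose or fell at an adjusted p under 0.05 in limma, where 0.491% of all genes were called higher and 0.441% lower. The smallest adjusted p was 0.16, for Ctsb (0.38, SE 0.12). At an unadjusted p under 0.05 there were 7 members, all higher, namely Ctsa, Ctsb, Ctsc, Hexa, Arsa, Psap and Atp6v1h, or 16.7% of the members against 14.0% of all genes. Over all 42 the median was 0.07, against -0.03 over all genes, and 29 lay above 0. In 37 other settings, quantile normalisation among them, the median of the members lay between 0.05 and 0.13. The summed Kupffer cell and macrophage markers overlapped between these groups, at 3170 to 9330 in SD and 3750 to 12300 in HFD, while the summed hepatocyte markers did not, at 76200 to 91000 in SD and 93700 to 131000 in HFD. All 7 hepatocyte markers lay above 0 in HFD-SD (median 0.39), and none was called. The part of either cell type in these values was not tested. Each array was divided by its own SD of log2 intensity. This was 1.92 to 1.99 for the mice on SD and 1.85 to 1.92 for those on HFD. Division by a smaller SD raises the level of a probe brighter than the array mean. The part of this scaling in the values of the proteases and of the hepatocyte markers was not tested.

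With the high dose on HFD, Ctsh, cathepsin H, an aminopeptidase of the papain family at chr9:90054267-90076095 (GRCm38.p6), rose. Its level was 5.41, 5.65, 5.69, 5.64 and 5.77 in the HFD mice and 6.11, 6.23, 6.06 and 6.03 in the HFDH mice. All 4 HFDH mice lay above all 5 HFD mice. The difference was 0.47 (SE 0.12, 1.39-fold, limma adjusted p = 0.027). The call was lost on leaving out HFD 1, HFD 4, HFDH 13, HFDH 14 or HFDH 15, with adjusted p up to 0.084, and with quantile normalisation (0.36, adjusted p = 0.057). On SD the same dose gave -0.01 (SE 0.12), with SDH 17 at 4.91 and the other 3 SDH mice at 5.63 to 5.78. SDH 17 is the mouse with the highest acinar markers. The difference between the diets was 0.48 (SE 0.17, limma adjusted p = 0.23). Ctsz, cathepsin Z, had a negative value with DSF on both diets without passing the test, at -0.40 with the low and -0.34 with the high dose on HFD, and at -0.19 and -0.41 on SD.

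None of the 9 glycosidases tested, which remove sugars from glycans and glycolipids one at a time, was called in any comparison. Man2b1, the alpha-mannosidase with the brightest probe of the class, had log2 fold changes from -0.06 to 0.17 in the 5 comparisons with diet or drug, and Idua, the dimmest, from -0.14 to 0.06. Hexa, a subunit of beta-hexosaminidase, was at 0.40 (SE 0.15, adjusted p = 0.11) in SDH-SD and 0.00 in HFDH-HFD. Gusb, beta-glucuronidase, was lower than in HFD at both doses, with -0.30 at the low dose (adjusted p = 0.35) and -0.32 at the high dose (adjusted p = 0.12), neither past the test.

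Among the 5 sulfatases, Arsa, arylsulfatase A, which removes sulfate from the myelin and kidney lipid sulfatide, fell with the high dose on HFD. The gene lies at chr15:89472476-89477424. Levels in the HFD mice were 3.37, 3.33, 3.13, 3.52 and 3.79, and in the HFDH mice 2.82, 2.90, 2.93 and 2.51. The 2 groups did not overlap. The difference was -0.64 (SE 0.16, 1.56-fold lower, limma adjusted p = 0.024), and the call was lost without HFD 4, HFD 5, HFDH 13 or HFDH 17 (adjusted p 0.055 to 0.064). The HFD mice were also the highest of the 6 groups, with a mean of 3.43 ± 0.25 (SD, n = 5) against 3.05 ± 0.14 (n = 5) in SD, and HFDH was at 2.79 ± 0.19 (n = 4). In SDH-SD the difference was 0.01 (SE 0.16), and between the diets -0.65 (SE 0.23, adjusted p = 0.23). Sgsh, the dimmest of the class, was detected in 13 mice and stayed between -0.09 and 0.09. The 2 probes of Arsb, which acts on dermatan sulfate, disagreed in HFDH-HFD, with -0.33 from the brighter and 0.15 from the dimmer. The probes of Gusb, Smpd1, Ctsa, Asah1, Cd63, Igf2r and Sort1 also differed in sign in some comparisons, none past the test in those.

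Gm2a encodes the GM2 activator, a small protein that lifts the ganglioside GM2 out of the membrane and presents it to beta-hexosaminidase. It is the member with the most calls, 3 of the 12, and lies at chr11:55097985-55113029. Its level was 4.86, 4.30, 4.53, 4.0 and 4.51 in SD, 5.16, 4.96, 5.59, 5.04 and 4.92 in SDL, and 5.36, 5.39, 5.12 and 4.95 in SDH. Every mouse with DSF on SD lay above every SD mouse. The gene rose by 0.69 in SDL-SD (SE 0.15, 1.62-fold, limma adjusted p = 0.020) and by 0.77 in SDH-SD (SE 0.15, 1.70-fold, adjusted p = 0.0041). On the fatty diet the levels were 3.95, 4.49, 4.55, 4.31 and 4.20 in HFD, 4.75, 4.91, 4.86 and 4.81 in HFDL, and 4.81, 5.30, 4.96 and 4.99 in HFDH. Again no mouse with DSF overlapped the mice without it. The rise was 0.72 in HFDH-HFD (SE 0.15, 1.64-fold, adjusted p = 0.0086), while HFDL-HFD gave 0.54 (SE 0.15) and did not pass (adjusted p = 0.15). The SDL-SD call was lost without SD 2, SD 4 or SDL 9 (adjusted p 0.074 to 0.084) and without SD 2 and SDH 17 together (0.66, adjusted p = 0.055). Both high-dose calls remained when any 1 mouse was left out, but with only the groups compared in the fit the SDH-SD call was lost (adjusted p = 0.053), as was that in SDL-SD (adjusted p = 0.12). With SDH 16 and HFDH 16 back in, among all 30 mice, the values were -0.03 in SDH-SD and -0.32 in HFDH-HFD.

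Ppt1, palmitoyl-protein thioesterase, which strips fatty acids from proteins on their way to degradation, fell with the high dose on both diets. It lies at chr4:122836077-122859175. The levels were 0.35, 1.01, 0.78, 1.09 and 1.28 in SD, 0.49, 0.34, 0.45, 0.51 and 0.44 in SDL, and 0.29, 0.25, 0.26 and 0.14 in SDH. All SDH mice lay below all SD mice, though SD 1 lay close to them. On HFD the levels were 1.29, 0.88, 0.86, 0.95 and 0.88 without DSF, 0.79, 0.74, 0.46 and 0.37 in HFDL, and 0.37, -0.02, 0.23 and 0.50 in HFDH. HFDL and HFDH lay wholly below HFD. The falls were -0.67 in SDH-SD (SE 0.14, 1.59-fold lower, limma adjusted p = 0.0052) and -0.70 in HFDH-HFD (SE 0.14, 1.63-fold lower, adjusted p = 0.0043). At the low dose the values were -0.46 on SD (adjusted p = 0.12) and -0.38 on HFD (adjusted p = 0.28). Both high-dose calls remained when any 1 mouse was left out, but the SDH-SD call was lost with only the groups compared in the fit (adjusted p = 0.075).

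Pla2g15, the lysosomal phospholipase A2, which acts on phospholipids inside the organelle and lies at chr8:106150354-106164718, fell in the same comparisons. Its level was 2.92, 2.93, 2.85, 3.27 and 2.82 in SD, 2.79, 2.27, 2.60, 2.39 and 2.70 in SDL, and 2.18, 2.29, 2.07 and 2.32 in SDH. SDL and SDH both lay below SD without overlap. On HFD it was 3.10, 2.90, 2.76, 2.84 and 3.47 without DSF, 2.34, 2.45, 2.38 and 2.70 in HFDL, and 2.00, 2.32, 2.20 and 2.80 in HFDH. Here HFDH 17 reached into the range of the HFD mice and the other 3 HFDH mice did not. The difference was -0.75 in SDH-SD (SE 0.15, 1.68-fold lower, limma adjusted p = 0.0039) and -0.68 in HFDH-HFD (SE 0.15, 1.60-fold lower, adjusted p = 0.0096). The latter call was lost without HFDH 13 (-0.57, adjusted p = 0.059) and with only the groups compared in the fit (adjusted p = 0.059). In HFDL-HFD the difference was -0.55 (adjusted p = 0.12), the smallest adjusted p of any member there, and in SDL-SD it was -0.41 (adjusted p = 0.22).

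The other 4 lipid genes, Smpd1, Lipa, Asah1 and Psap, were not called. Psap, which encodes the precursor of the saposins and has the brightest probe of the class, was at 0.40 in HFD-SD (SE 0.14, adjusted p = 0.18) and between -0.18 and 0.04 in the 4 DSF comparisons against the diet alone. Lipa, the acid lipase that frees cholesterol and fatty acids from lipoproteins, was at -0.33 in HFD-SD, with intensities from 635 to 3504 across the 27 mice. Npc2, which hands cholesterol to the membrane for export and is the only gene of that class tested, was at -0.40 in HFDH-HFD and 0.25 in SDH-SD, and the difference between these was -0.65 (SE 0.25, adjusted p = 0.26).

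**Figure D2:**
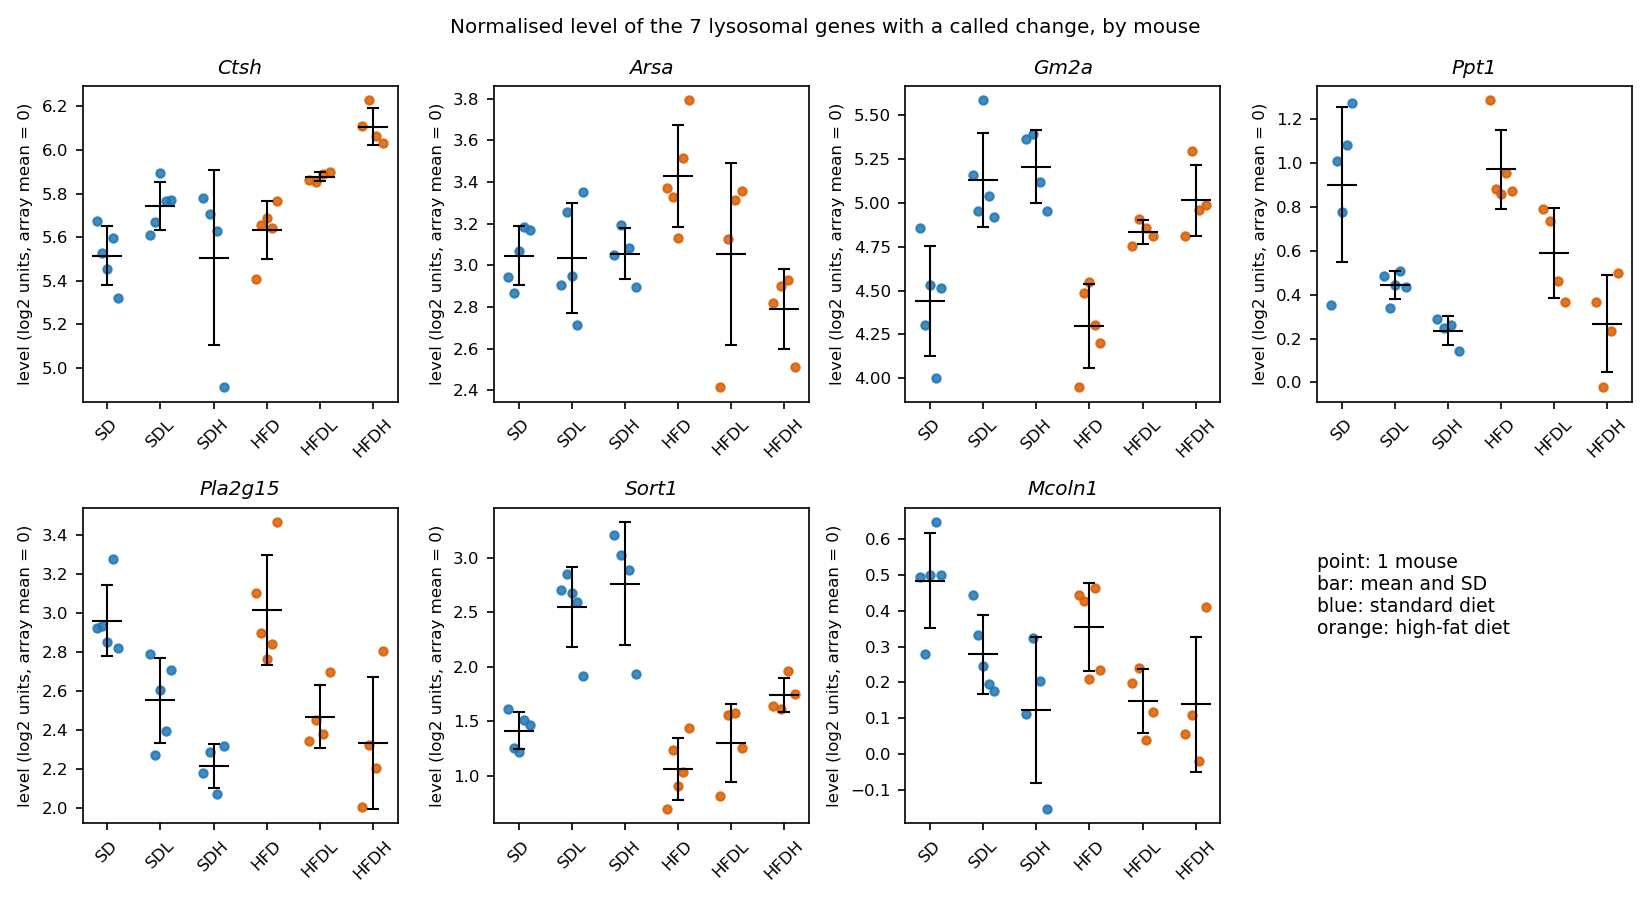
Normalised level (log2 units, array mean at 0) of the 7 called members in each mouse of the 6 groups, with the mean and SD of 4 or 5 mice per group. Gm2a rose and Ppt1 fell with the high dose on both diets, Sort1 was highest in SDL and SDH, and SDH 17 was the lowest SDH mouse for 6 of the 7, all but Pla2g15.

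Of the membrane proteins, Mcoln1, the calcium channel TRPML1 of the lysosomal membrane at chr8:3500519-3515232, fell in SDH-SD. The SD mice were at 0.49, 0.28, 0.50, 0.65 and 0.50, and the SDH mice at 0.11, 0.32, 0.20 and -0.15. One SDH mouse, SDH 14, lay above SD 2, so the groups overlapped. The difference was -0.36 (SE 0.10, 1.29-fold lower, limma adjusted p = 0.033). This call was lost without SD 1, SD 3, SD 4, SDH 13, SDH 15 or SDH 17 (adjusted p 0.054 to 0.11) without SD 2 and SDH 17 together (-0.32, adjusted p = 0.079) and with only the groups compared in the fit (adjusted p = 0.15). Elsewhere Mcoln1 was at -0.21 with the low dose on each diet and at -0.22 with the high dose on HFD, none past the test. Lamp1 and Lamp2, the heavily glycosylated proteins that line the membrane, were not called. Lamp2 has 4 probes, and in SDH-SD they disagreed, with 0.28 and 0.35 from 2 of them and -0.08 and -0.28 from the others, none past the test over all probes. Cd63, a tetraspanin of late endosomes, was at -0.45 with the low dose on HFD and at -0.54 with the high dose, without passing.

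Sort1 encodes sortilin, a sorting receptor that carries saposin precursor and the GM2 activator from the Golgi to lysosomes and that, in liver, also binds apolipoprotein B. The gene lies at chr3:108283974-108361519. Levels were 1.62, 1.26, 1.22, 1.51 and 1.47 in SD, 2.71, 2.85, 2.68, 2.60 and 1.92 in SDL, and 3.21, 3.02, 2.89 and 1.94 in SDH. All mice with DSF lay above the SD mice, and SDL 11 and SDH 17 lay well below the rest of their groups. The rise was 1.14 in SDL-SD (SE 0.20, 2.20-fold, limma adjusted p = 0.0048) and 1.35 in SDH-SD (SE 0.21, 2.55-fold, adjusted p = 0.00055), the 2 largest fold changes of any member. Without SD 2 and SDH 17 the SDH-SD rise was 1.59 (adjusted p = 0.00012), and both calls remained when any 1 mouse was left out.

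On the fatty diet Sort1 was at 0.69, 1.23, 0.90, 1.03 and 1.44 in HFD, 0.81, 1.56, 1.57 and 1.26 in HFDL, and 1.64, 1.61, 1.96 and 1.75 in HFDH. HFDH lay above HFD without overlap, but the difference of 0.68 (SE 0.21) did not pass in limma (adjusted p = 0.069). The difference between the diets was -0.90 (SE 0.29) for the low dose and -0.67 (SE 0.30) for the high dose, with adjusted p of 1 and 0.36, so a weaker rise on HFD was not shown over all genes. Of the 4 Sort1 probes, the 2 detected in all 27 mice gave 1.22 and 1.14 in SDL-SD and 1.48 and 1.35 in SDH-SD, each past the test over all probes. The remaining 2, detected in 6 and 10 mice, gave 0.14 and 0.32 in SDL-SD and 0.18 and 0.23 in SDH-SD and were not called. The other sorting receptors, M6pr and Igf2r, which bind mannose 6-phosphate, stayed between -0.13 and 0.16, and the 2 probes of M6pr differed in sign in all 5 comparisons but SDL-SD.

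The proton pump was represented by Atp6ap1, an accessory subunit, and Atp6v1h, a subunit of the cytosolic part. Neither was called. Their log2 fold changes lay between -0.07 and 0.14 for Atp6ap1 and between 0.02 and 0.20 for Atp6v1h in the 5 comparisons, the latter with an SE of 0.08.

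Set against all genes tested, the counts were as follows. In HFDH-HFD, 2 of 42 members rose (Ctsh and Gm2a) and 3 fell (Arsa, Ppt1 and Pla2g15), where 1.44% of all genes rose and 2.94% fell. In SDH-SD, 2 rose (Gm2a and Sort1) and 3 fell (Ppt1, Pla2g15 and Mcoln1), against 2.81% and 4.26%. In SDL-SD, 2 rose (Gm2a and Sort1) and 0 fell, against 0.271% and 0.361%. At an unadjusted p under 0.05 there were 13 members in HFDH-HFD (31%, against 20% of all genes). The same threshold gave 11 in SDH-SD (26.2%, against 23.5%) and 8 in SDL-SD (19%, against 10.7%). In HFDL-HFD no member was called in limma, where 0.0702% of all genes rose and 0.391% fell. There 9 members (21.4%, against 10.6% of all genes) were at an unadjusted p under 0.05, 8 of them lower. The methods' criteria, applied here to the same values, passed 5 members and 4.72% of all genes. Of these members Gm2a was higher, and Ctsz, Arsb, Ppt1 and Pla2g15 were lower. With so few calls these shares are counts of single genes and not a property of the list.

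For the members as a list, the median in SDH-SD was 0.03 against -0.04 over all genes, and 23 of 42 lay above 0. In HFDH-HFD the median was -0.08 against -0.01 and 15 lay above 0, and in HFDL-HFD it was -0.10 against -0.02 and 10 lay above 0. In SDL-SD it was 0.02 against -0.01, with 21 on each side. The SD between mice of the members' mean level within a group was 0.0723.

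**Figure D3:**
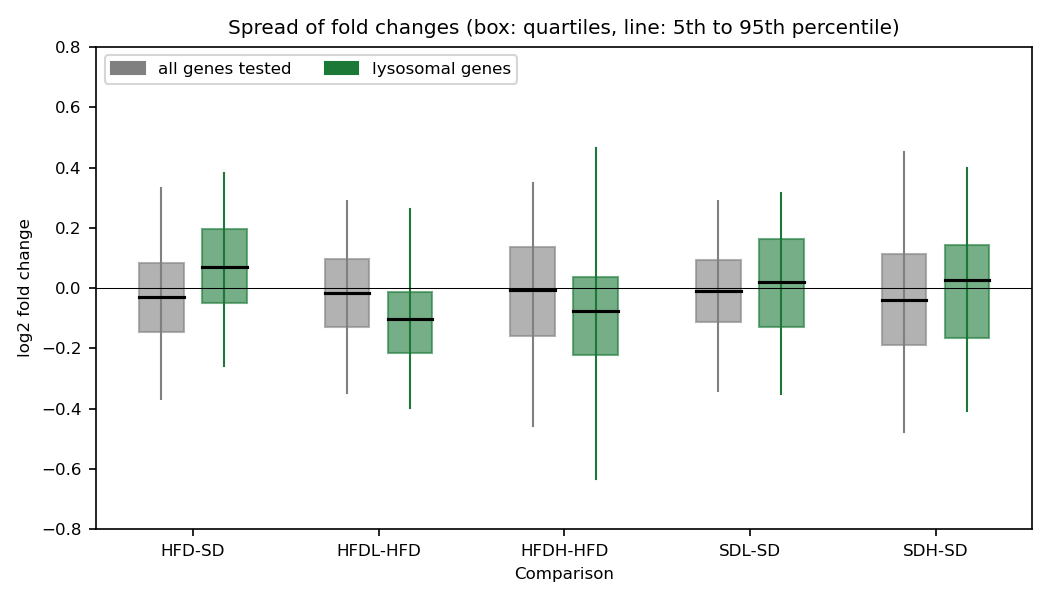
Spread of log2 fold changes in 5 comparisons for the 42 lysosomal genes (green) and all 9972 genes tested (grey), with boxes for the quartiles, black lines for the medians and thin lines from the 5th to the 95th percentile. The medians of the lysosomal genes lie between -0.10 and 0.07 and the boxes overlap those of all genes throughout.

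HFDH-HFD and SDH-SD share no mice. Across the 42 members 28 (66.7%) had the same sign in both, against 60.1% of all genes, and the fold changes correlated with Pearson's r of 0.667 (Spearman's rho 0.467), against 0.451 over all genes. These are correlations across genes, which are not independent replicates, and all arrays share the probe set. For the low dose 27 members (64.3%) had the same sign, against 61.6% of all genes. In the tests of the high against the low dose, 0 members were called, with 0% of all genes called in HFDH-HFDL and 0% in SDH-SDL. At an unadjusted p under 0.05 there were 3 members in the first (Gaa, Ppt1 and Smpd1), or 7.14% against 5.9% of all genes, and 2 in the second (Galns and Pla2g15), or 4.76% against 8.47%. The 95% interval of a member's difference between doses had a median half-width of 0.28 on HFD and 0.27 on SD. For the difference between the diets 0 members were called, with 0% of all genes at the low dose and 0.0602% at the high dose. At an unadjusted p under 0.05 there were 4 members (9.52%, against 4.21% of all genes) at the low dose and 8 (19.0%, against 12.7%) at the high dose, and the median half-widths were 0.37 and 0.38.

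**Figure D4:**
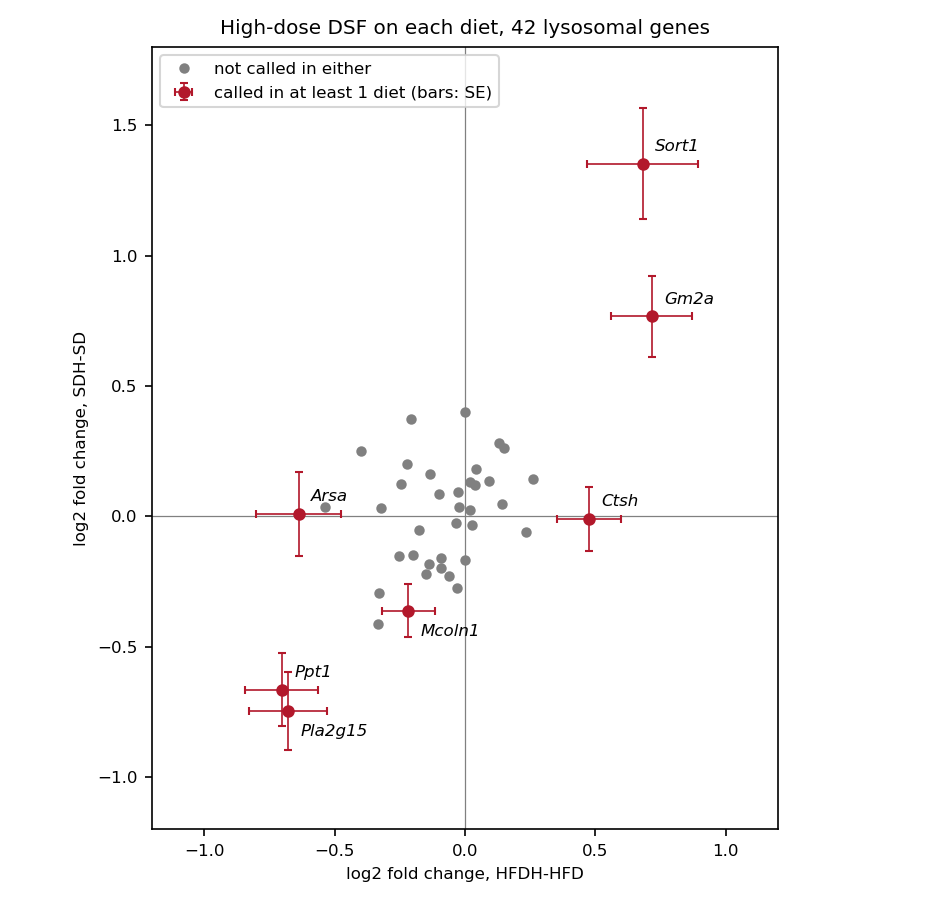
Log2 fold change of the 42 members with the high dose on HFD (horizontal) and on SD (vertical), with SE bars and names for the 7 members called in at least 1 diet. Gm2a and Sort1 lie to the upper right and Ppt1 and Pla2g15 to the lower left, while Ctsh and Arsa lie away from 0 on the HFD axis and near 0 on the SD axis. For Ctsh the SD value includes SDH 17, at a level of 4.91 against 5.63 to 5.78 in the other SDH mice.

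Other genes of the organelle were taken from a list of 55, of which 46 had a probe and 42 were tested. None was called for the diet, for either dose on HFD or for the low dose on SD. In SDH-SD 0 rose and 4 fell, where 2.81% of all genes rose and 4.26% fell. The 4 were Ctns, the cystine exporter (-0.53, limma adjusted p = 0.0021), Clcn7, a chloride-proton exchanger (-0.68, adjusted p = 0.023), Acp2, an acid phosphatase (-0.40, adjusted p = 0.024), and Galc, galactosylceramidase (-0.43, adjusted p = 0.044). Together the median of this list was 0.00 in SDH-SD and -0.07 in HFDH-HFD.

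A list of 16 genes of the TFEB family and of lysosomal nutrient sensing had 9 that were tested, and Tfeb and Mitf themselves were below the detection filter. Tfe3, the family member that was measured, rose in HFDH-HFD (0.45, SE 0.13, limma adjusted p = 0.041) and in SDH-SD (0.49, SE 0.13, adjusted p = 0.023). Flcn, folliculin, known to restrain TFE3 at the lysosome, fell in both, by -0.57 (SE 0.14, adjusted p = 0.014) and -0.45 (SE 0.14, adjusted p = 0.045). Rragc, a small GTPase of the same pathway, fell in SDH-SD (-0.35, adjusted p = 0.033). Neither Tfe3 nor Flcn passed the test at the low dose. Without drug, Flcn was at 0.50 in HFD-SD (SE 0.13, limma adjusted p = 0.056). Of all genes, 1.44% rose and 2.94% fell in HFDH-HFD, and 2.81% and 4.26% in SDH-SD. How calls fared with a mouse left out or in other settings was examined for the members only, and not for these genes or the other lysosomal genes.

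Markers of liver cell types were read beside these results. In SDH-SD, 2 of 7 hepatocyte markers rose (Alb, detected in 13 of the 27 mice, and Serpina1a) and 1 of 5 stellate cell markers fell. Of all genes 2.81% rose and 4.26% fell there. The 5 stellate cell markers ran from -0.96 to 0.90. No marker of any list passed in the comparisons of HFDH-HFD and SDL-SD. Summed hepatocyte markers were 76200 to 91000 in SD and 91900 to 119000 in SDH, without overlap, and 93700 to 131000 in HFD and 108000 to 154000 in HFDH. Kupffer cell and macrophage sums were 4270 to 6020 in SDH and 3980 to 8790 in HFDH, within the ranges of their diet controls. The part of these cells in the changes of Gm2a, Ppt1, Pla2g15, Sort1, Mcoln1, Ctsh and Arsa was not tested. The SD by which each array was divided was 1.86 to 1.93 in SDH and 1.78 to 1.87 in HFDH. In the SD and HFD groups it was 1.92 to 1.99 and 1.85 to 1.92. The part of this scaling in the marker sums was not tested.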

How the data were processed

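Liver RNA was hybridised to Illumina MouseRef-8 v2 BeadChips. The authors extracted the data with GenomeStudio (2011.1) and deposited, for each probe and array, a linear intensity (27 to 37030, with no background subtraction or scaling visible) and a detection p-value computed from negative control beads. The authors also deposited a score for each probe, its Z-normalised log intensity, which entered only as an alternative.

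Each array was Z-normalised on the log2 scale over all probes and brought back to log2 units with 1.89, the average SD over the 29 arrays used. An SD mouse and an HFD mouse had 2 arrays each (r of 0.997 and 0.996), which were averaged. A probe entered if 5 or more mice detected it (p under 0.05), and the brightest stood for its gene. Array medians of 57 to 77, as signal over background, and 4 or 5 mice per group limit the precision. The labels do not say that mice were processed in batches, and slides are not given in the sources used here. Column headers of the groups with DSF give the group but not which sample.

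Groups were compared with limma (3.58.1, R 4.3.3), with 1 mean per group over 27 mice and Benjamini-Hochberg adjustment over 9972 genes in each of 9 comparisons. A call is an adjusted p under 0.05. The model was tested on simulated data. The members, the lists and the tests were chosen with earlier results of these data known. Named are all called members, the brightest and dimmest member of each role, members not tested or with disagreeing probes, and, where called, up to 3 other lysosomal genes each way. Galc, Tfe3, Flcn, Rragc and the members described without a call were chosen after their values were seen. Alternatives were other normalisations and filters, all 30 mice, 1 mouse left out at a time, a replicate block, the methods' criteria and the deposited scores. Testing each probe by itself was added after seeing the data. Promoter windows are from RefSeq (GRCm38.p6).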

Additional observations from a re-analysis of the deposited data

Results flagged for a closer look

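Of 42 sets of levels examined (7 called members in 6 groups), 3 held a mouse far from the rest of its group, and chance alone marks about 1 set in 20. Ppt1 was at 1.29 in HFD 1, with the other 4 HFD mice at 0.86 to 0.95. Pla2g15 was at 3.27 in SD 4, with the other SD mice at 2.82 to 2.93. Sort1 was at 1.92 in SDL 11, with the other SDL mice at 2.60 to 2.85. The calls of Ppt1 in HFDH-HFD, of Pla2g15 in SDH-SD and of Sort1 in SDL-SD each remained when that mouse was left out. No member's response differed between the diets by the test of that difference.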

How the results depend on the processing

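The 12 calls were all kept without a detection filter, with detection in at least 14 mice or with the mean of a gene's detected probes. With quantile normalisation and with neqc, 10 were kept, and Ctsh in HFDH-HFD and Mcoln1 in SDH-SD were lost. With SD 2 and SDH 17 left out together, Gm2a in SDL-SD and Mcoln1 were lost, and the count in SDL-SD was 1 in place of 2. With only the groups compared in the fit, 7 calls were kept, and the counts were 1 in SDL-SD and 2 in SDH-SD. Of all genes, 302 were then called in HFDH-HFD, 20 in SDL-SD and 123 in SDH-SD, against 437, 63 and 705 before. Lost were Pla2g15 in HFDH-HFD, Gm2a in SDL-SD, and Gm2a, Ppt1 and Mcoln1 in SDH-SD. Fewer mice then set the spread. Over all 30 mice the counts were 0 in HFDH-HFD, 0 in SDL-SD and 0 in SDH-SD, with the deposited scores as with the intensities. Of all genes, 19, 2 and 7 were called there with the intensities and 15, 2 and 6 with the scores. Across the 30 mice Ctsh (-0.0049 with the intensities, -0.0054 with the scores) and Gm2a (-0.32 with both) changed sign in HFDH-HFD. In SDH-SD Gm2a (-0.026) did so with the intensities. The arrays of SDH 16, HFDL 10 and HFDH 16 are what this setting adds. The methods' criteria, which need no adjusted p under 0.05, gave 3 in HFD-SD, 5 in HFDL-HFD, 6 in HFDH-HFD, 4 in SDL-SD, 4 in SDH-SD (without Mcoln1), 0 in HFDH-HFDL and 2 in SDH-SDL, and passed 2.2% to 5.85% of all genes over these 7 comparisons. With 1 mouse left out at a time, the count was 2 to 6 in HFDH-HFD (lowest without HFDH 13), 1 to 3 in SDL-SD (lowest without SD 2, SD 4 or SDL 9, highest without SD 1), 4 to 6 in SDH-SD and 0 in the other comparisons. Testing each probe by itself gave the same member counts. The replicate block gave 0 members in HFD-SD and 0 in both differences between the diets, as without it. Deviations of same-numbered mice correlated from -0.20 to 0.482, and not every pair was over 0.1, so the numbers were not taken to pair the mice. Depth here is signal over background, and Sgsh, Galns and Ctsd lie near it. Of the called members, Mcoln1 and Ppt1 had median intensities of 151 and 181, against array medians of 57 to 77. With neqc Ppt1 was at -0.79 in HFDH-HFD and -0.75 in SDH-SD, and Mcoln1 at -0.40 in SDH-SD.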
